A study of Mus musculus with 48 samples.

Results

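The genes described here are those of complement C1q and of complement receptors: C1qa, C1qb and C1qc, which encode the A, B and C chains of C1q, Itgam, which encodes the alpha subunit (CD11b) of complement receptor 3 (CR3), and C3ar1, which encodes the receptor of the complement fragment C3a. They were chosen by name for their part in synapse pruning, with earlier results of these data known. All 5 were found among the 478 genes of each table. Transcripts had been counted on the nCounter mouse glial panel, which reads colour-coded probes bound to RNA molecules without amplification, in microglia sorted from the hippocampus of Balbc/Byj pups aged 17 days. The rearing groups were LB, UPS and CTL (control), with 16 animals each, 8 male and 8 female, run in 4 batches that each held 2 animals of every group and sex. As background, LB stands for rearing with limited bedding and UPS for unpredictable postnatal stress, and both are mouse models of early-life adversity. About 60000 sorted cells per animal were lysed for the assay, and some animals of a group were littermates.

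As background, C1q is the recognition molecule of the classical complement pathway and is built from equal numbers of its A, B and C chains, so that all 3 genes are needed to make it. In the brain microglia are its main source. C1q tags weak synapses in the developing hippocampus and visual system, C3 is cleaved downstream and its fragments are deposited there, and microglia engulf the tagged material through CR3, of which CD11b pairs with the beta subunit CD18. C3a, the small fragment released when C3 is cleaved, acts on microglia through its own receptor, the product of C3ar1.

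The authors' deposited tables hold a log2 ratio, a fold change and a p for every gene, in 1 table for each pair of rearing groups with the sexes pooled. A gene passed the test where its p after Benjamini-Hochberg adjustment over the table's 478 genes was below 0.05. Standard errors and 95% intervals were recovered from each ratio and its p. Like the p-values, they take all animals as independent, although littermates were among them. The headers do not name the numerator of a ratio, and the 3 tables fit together to within 0.003 on the log2 scale whichever way round they are read. Signs are therefore given as deposited. If the group named last in each table's title is the numerator, a positive sign means more transcript in LB than in CTL, in UPS than in CTL and in UPS than in LB. The opposite reading turns every sign in all tables at once. Values per animal were not used here, so no level, spread between animals or overlap of groups can be given, and the label of the cells could be checked only by what was measured: all 12 listed microglial markers were among the 478 genes. In such bulk samples a difference in transcript per cell and a difference in the share of cells that carry it cannot be told apart.

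The C1q genes differed between UPS and LB, and all 3 chains did so with the same sign and by similar amounts. C1qb had a log2 ratio of 0.16 in the authors' deposited table, a 1.12-fold difference (recovered 95% interval 0.099 to 0.23, adjusted p = 0.000347). C1qa was at 0.13 in the authors' deposited table, or 1.1-fold (interval 0.076 to 0.19, adjusted p = 0.00101). C1qc was at 0.13 as well, or 1.1-fold in the authors' deposited table (interval 0.065 to 0.20, adjusted p = 0.00956). None of these intervals reached 0. Of the 5 genes 3 passed between UPS and LB, all with a positive ratio, where 6.28% of the 478 genes passed and 4.6% passed with a positive ratio. By the size of p the chains ranked 9 (C1qb), 11 (C1qa) and 16 (C1qc) among the 478 genes. By the size of the ratio they stood lower, at 55, 80 and 77 in the same order. Among the 30 genes that passed they were ranked 18, 26 and 25 by size, so that most other genes that passed had larger ratios.

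The receptors did not pass between UPS and LB. Itgam was at 0.037 in the authors' deposited table, or 1.03-fold (interval -0.049 to 0.12, p = 0.391, adjusted p = 0.67). C3ar1 was at -0.051 in the authors' deposited table, or 0.965-fold (interval -0.17 to 0.064, p = 0.378, adjusted p = 0.667). The C3ar1 ratio thus carried the opposite sign to those of the C1q chains, with an interval that held 0. Differences above 1.09-fold for Itgam and above 1.045-fold for C3ar1 in the direction of the C1q chains lay outside these intervals.

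**Figure D1:**
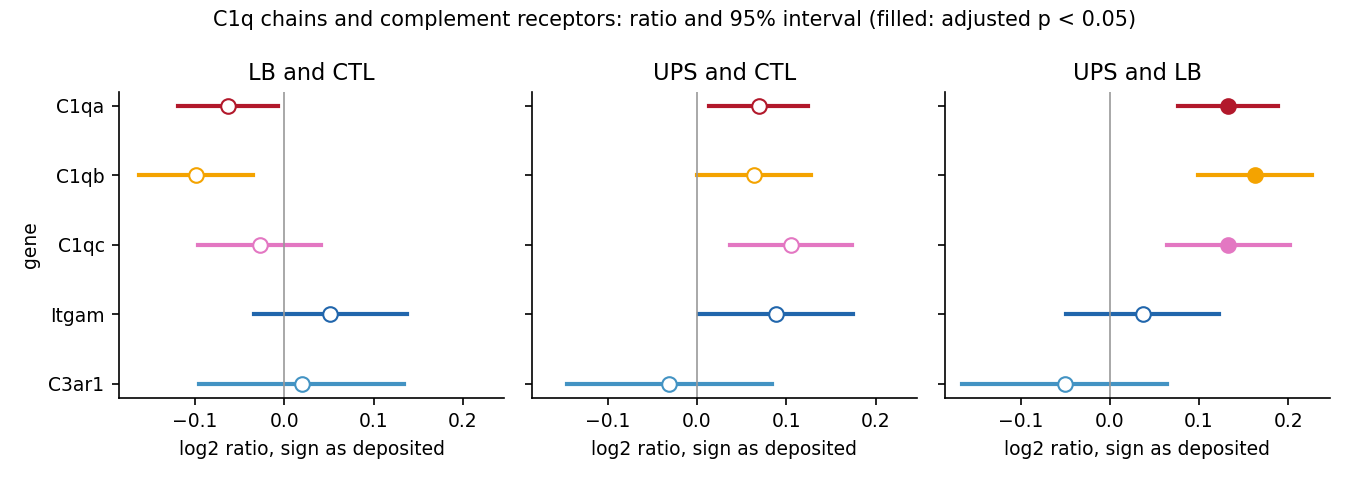
Log2 ratios of the 5 genes in the authors' deposited tables (x axis, log2, sign as deposited) for LB and CTL, UPS and CTL, and UPS and LB, with points for the ratio, lines for the recovered 95% interval and filled points for an adjusted p below 0.05. The C1q chains lie left of 0 between LB and CTL and right of 0 between UPS and CTL, and between UPS and LB their points, at 0.13 to 0.16, are filled.

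All 3 C1q genes passed between UPS and LB while Itgam and C3ar1 did not. The bases before the start of C1qb, C1qc, Itgam and C3ar1 are shown so that C1q promoters can be set beside those of the receptors. C1qa is left out because no promoter was matched for it. RefSeq promoters (build GRCm38.p6) were matched for 4 of the 5 genes, and the 250 bases before the start are printed 5′ to 3′ on the gene's strand. Capitals mark letter matches of 6 motifs searched on both strands: PU.1 (GAGGAA), C/EBP (TTGCNNAA), IRF (AAANNGAA), AP-1 (TGANTCA), MAF (TGCTGA) and the TATA box (TATAAA). PU.1 is the lineage factor of macrophages and microglia, and C/EBP, IRF, AP-1 and MAF are families of factors that act in myeloid cells. C1qb lies at chr4:136886201-136886450 (minus strand), C1qc at chr4:136892915-136893164 (minus strand), Itgam at chr7:128062390-128062639 (plus strand) and C3ar1 at chr6:122856158-122856407 (minus strand).
C1qb: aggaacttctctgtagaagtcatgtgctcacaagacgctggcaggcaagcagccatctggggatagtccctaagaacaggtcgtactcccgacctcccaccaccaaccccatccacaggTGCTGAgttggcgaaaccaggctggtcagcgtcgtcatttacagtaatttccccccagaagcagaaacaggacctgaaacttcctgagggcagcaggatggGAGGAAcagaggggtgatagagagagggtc
C1qc: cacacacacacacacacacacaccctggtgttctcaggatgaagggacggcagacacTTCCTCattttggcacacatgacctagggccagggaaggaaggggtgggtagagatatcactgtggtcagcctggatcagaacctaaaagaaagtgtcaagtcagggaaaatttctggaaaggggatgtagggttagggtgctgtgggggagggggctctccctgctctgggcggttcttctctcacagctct
Itgam: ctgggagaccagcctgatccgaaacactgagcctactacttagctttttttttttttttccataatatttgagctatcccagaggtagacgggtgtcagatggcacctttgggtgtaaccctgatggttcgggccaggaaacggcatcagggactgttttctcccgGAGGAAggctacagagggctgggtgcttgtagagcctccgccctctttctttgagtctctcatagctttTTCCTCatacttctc
C3ar1: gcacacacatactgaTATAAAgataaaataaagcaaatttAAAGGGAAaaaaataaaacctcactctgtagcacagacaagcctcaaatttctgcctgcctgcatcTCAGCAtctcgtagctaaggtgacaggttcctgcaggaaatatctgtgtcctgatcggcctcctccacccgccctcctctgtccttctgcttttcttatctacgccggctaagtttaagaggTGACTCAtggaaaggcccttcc

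The PU.1 letters were present once in the C1qb stretch, at positions -30 to -25 from the start, and once in that of C1qc, on the other strand at -193 to -188. Itgam held them 2 times, at -84 to -79 and at -15 to -10, and C3ar1 held 0 matches. The same letters occur in 23.3% of all 32851 RefSeq promoters of this length, so their presence is common. Among the 461 promoters matched to 360 of the 478 genes analysed here the share was 23.9%. The MAF letters were present in C1qb (-131 to -126) and C3ar1 (-144 to -139), against 16.1% of all promoters. C3ar1 also held the AP-1 letters at -22 to -16 (6.75% of all promoters), the IRF letters at -210 to -203 (21.1%) and the TATA letters at -235 to -230 (12.4%). The C/EBP letters, found in 9.56% of all promoters, were in 0 of the 4 stretches. No matches of different motifs overlapped. A match is a match of letters only, and binding was not measured. In the same RefSeq annotation C1qb, C1qc and C1qa follow one another on chromosome 4 with no other protein-coding gene between them, next to the ephrin receptor genes Ephb2 and Epha8, so the C1q genes form 1 locus.

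**Figure D2:**
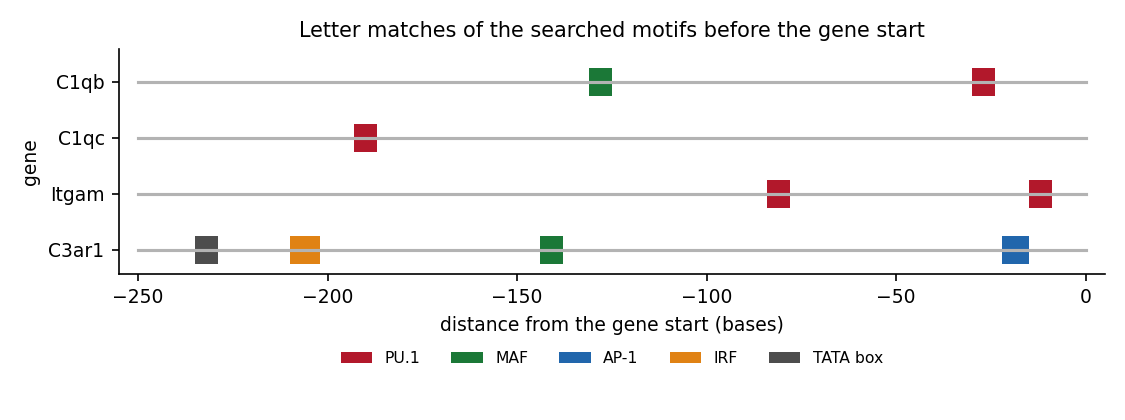
Positions of the motif letter matches (coloured boxes) in the 250 bases before the start of C1qb, C1qc, Itgam and C3ar1, with the distance from the gene start in bases on the x axis. C1qb, C1qc and Itgam hold the PU.1 letters and C3ar1 holds those of the other motifs named in the legend.

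Between LB and CTL 0 of the 5 genes passed, as did 0 of the 478 (0.0%), and 56 genes had an unadjusted p below 0.05. C1qb came closest among the 5, with a log2 ratio of -0.099 in the authors' deposited table, or 0.934-fold (interval -0.16 to -0.035, p = 0.00315, adjusted p = 0.194), and was ranked 5 by p among all genes. C1qa was at -0.063 in the authors' deposited table, or 0.957-fold (interval -0.12 to -0.0072, p = 0.0281, adjusted p = 0.384). C1qc was at -0.028 in the authors' deposited table (interval -0.096 to 0.041, p = 0.42, adjusted p = 0.79). All chains thus had negative ratios here, with the size of C1qc within its error of 0.

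The receptors had positive ratios between LB and CTL. Itgam was at 0.052 in the authors' deposited table, or 1.04-fold (interval -0.034 to 0.14, p = 0.23, adjusted p = 0.648). C3ar1 was at 0.020 in the authors' deposited table, or 1.01-fold (interval -0.095 to 0.13, p = 0.73, adjusted p = 0.92). Both intervals held 0.

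Between UPS and CTL 0 of the 5 genes passed as well, where 4.81% of the 478 genes passed and 3.56% passed with a positive ratio. C1qc was nearest to the threshold, at 0.11 or 1.08-fold in the authors' deposited table (interval 0.037 to 0.17, p = 0.00339, adjusted p = 0.0596). C1qa was at 0.069 in the authors' deposited table, or 1.05-fold (interval 0.013 to 0.12, p = 0.0171, adjusted p = 0.195). C1qb was at 0.064 in the authors' deposited table, or 1.05-fold (p = 0.0502, adjusted p = 0.304). The chains had positive ratios throughout. This comparison and that of LB and CTL share the CTL animals.

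Itgam was at 0.089 in the authors' deposited table for UPS and CTL, or 1.06-fold (interval 0.0027 to 0.17, p = 0.0434, adjusted p = 0.299). This was its largest ratio in the 3 tables and close to those of the C1q chains. C3ar1 was at -0.031 in the authors' deposited table, or 0.979-fold (interval -0.15 to 0.084, p = 0.59, adjusted p = 0.823).

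**Figure D3:**
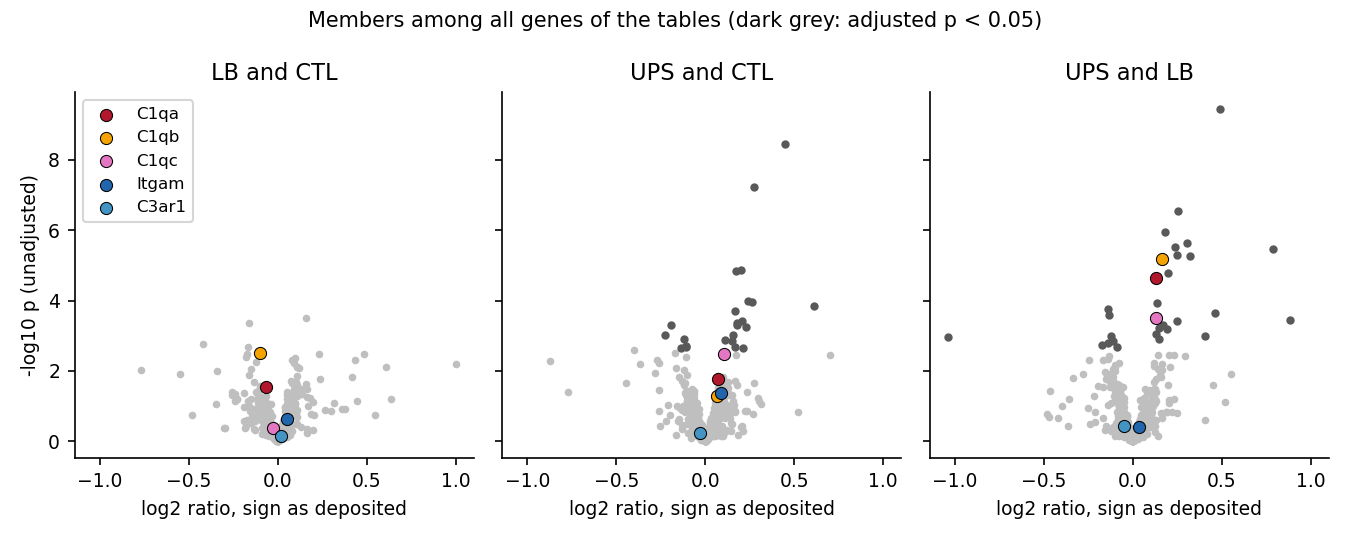
Log2 ratio (x axis, sign as deposited) against -log10 of the unadjusted p (y axis) for all 478 genes in each of the authors' deposited tables, with the 5 genes in colour and genes with an adjusted p below 0.05 in dark grey. Between UPS and LB the C1q chains stand among the genes that passed, with small ratios and small p, while Itgam and C3ar1 lie near the origin.

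On each gene's own scale the groups could be put in order from the deposited ratios, apart from the turn of all signs described above. For C1qa, C1qb and C1qc the order was LB, CTL, UPS from low to high as deposited, so CTL lay between the stress models in either reading. The span from LB to UPS was 4.76 standard errors for C1qa, 5.15 for C1qb and 3.91 for C1qc. The place of CTL within it differed: the step between LB and CTL made up 60.8% of the span for C1qb, 47.8% for C1qa and 20.9% for C1qc. Neither step passed the test for any chain, so neighbours in this order were not told apart, and CTL enters both steps. For Itgam CTL lay at one end (CTL, LB, UPS), with a span of 2.08 standard errors, and for C3ar1 the order was UPS, CTL, LB with a span of 0.891 standard errors.

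A test of all 3 groups at once was computed from the deposited ratios against CTL and the recovered standard errors, an F test added after the values had been seen. It was passed by 33 of the 478 genes (6.9%) after Benjamini-Hochberg adjustment, among them the 3 C1q genes. C1qb had F = 13.4 (adjusted p = 0.00146, rank 10 by p), C1qa had F = 11.3 (adjusted p = 0.00459, rank 12) and C1qc had F = 8.52 (adjusted p = 0.0188, rank 20). Itgam (F = 2.19, adjusted p = 0.377) and C3ar1 (F = 0.403, adjusted p = 0.803) did not pass. This test uses the same animals and ratios as the pairwise tables.

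The small C1q ratios came with small errors. The recovered standard error of the log2 ratio was 0.028 for C1qa, the 24th smallest of the 478 genes, 0.032 for C1qb (50th) and 0.034 for C1qc (78th), beside a median of 0.050 over all genes. It was 0.042 for Itgam and 0.057 for C3ar1, which had rank 299. A 95% interval therefore spanned 1.04-fold to either side for C1qa but 1.08-fold for C3ar1 (0.11 on the log2 scale, beside the C1qa ratio of 0.13 between UPS and LB). Were all standard errors larger by a common factor, the C1qb call between UPS and LB would hold up to a factor of 1.44. That of C1qa would hold up to 1.36 and that of C1qc up to 1.16. Likeness of littermates could enlarge the errors by factors that differ between genes, and it was not estimated.

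**Figure D4:**
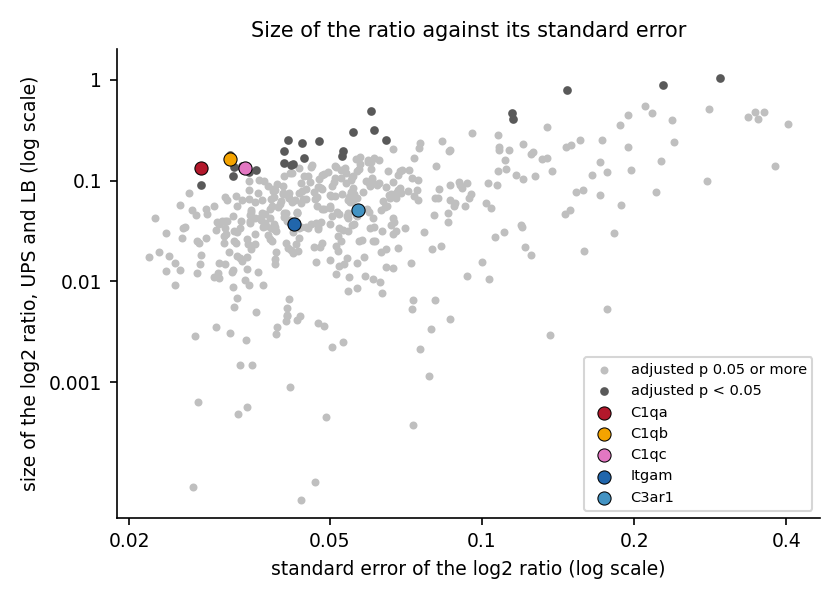
Size of the log2 ratio between UPS and LB (y axis, log scale) against its recovered standard error (x axis, log2 units, log scale) for the 478 genes, with the 5 genes in colour. C1qa, C1qb and C1qc combine standard errors of 0.028 to 0.034 with ratios of 0.13 to 0.16, while Itgam and C3ar1 lie among the genes that did not pass.

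The chains were not told apart from each other by these data. The covariance of genes over animals is unknown, so each difference between log2 ratios is given with the widest 95% interval that any covariance allows, without adjustment over the 10 pairs of genes in a comparison. Between UPS and LB C1qa minus C1qb was -0.031 (-0.15 to 0.089), C1qa minus C1qc was -0.0010 (-0.13 to 0.12) and C1qb minus C1qc was 0.030 (-0.10 to 0.16). C3ar1 stood apart from C1qa and C1qb: C1qa minus C3ar1 was 0.18 (0.012 to 0.35) and C1qb minus C3ar1 was 0.21 (0.035 to 0.39). C1qc minus C3ar1 was 0.18 (0.00041 to 0.37). Its lower end lay too near 0 to be told from it, since the deposited ratios are rounded. Itgam was not separated from the chains in this way, with C1qb minus Itgam at 0.13 (-0.023 to 0.28). Taking genes as independent would narrow that interval to 0.019 to 0.23. Between LB and CTL C1qb minus Itgam was -0.15 (-0.30 to -0.0012), the only one of 10 pairs whose widest interval excluded 0, and between UPS and CTL there were 0 such pairs.

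Other genes of the pathway were taken from lists chosen with earlier results of these data known. Of 44 further complement genes only C1ra, the serine protease that C1q activates, was among those analysed here. It had ratios of -0.15 between LB and CTL, -0.20 between UPS and CTL and -0.047 between UPS and LB in the authors' deposited tables. None passed, and its standard error was 0.15, several times those of the chains. C3, whose fragment binds CR3, and Itgb2, the partner of CD11b, were not analysed here.

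Genes for the adaptor and signalling partners of CR3 were represented by 4 of 30 listed: Tyrobp, Pik3cb, Pik3r1 and Ncf1. Between UPS and LB 3 of these 4 passed, all with a positive ratio (4.6% of all 478 genes did so), and the median of the 4 was 0.21 beside -0.010 over all genes. In the authors' deposited table Ncf1, which encodes p47phox of the oxidase that makes superoxide in phagocytes, had a log2 ratio of 0.32 (adjusted p = 0.000317). The PI3-kinase genes followed in the authors' deposited table, Pik3cb with 0.25 (adjusted p = 0.000317) and Pik3r1 with 0.17 (adjusted p = 0.0122). Tyrobp, the adaptor that couples CR3 and other receptors to kinases inside the cell, had 0.011 (adjusted p = 0.864) by the authors' deposited table. Between UPS and CTL Ncf1, Pik3cb and Pik3r1 passed with 0.26, 0.18 and 0.16 in the authors' deposited table, from the same UPS animals. In that comparison 3.56% of all genes passed with a positive ratio. Between LB and CTL 0 of the 4 genes passed, as did 0.0% of all genes. These proteins serve many receptors besides CR3.

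Of 35 listed genes for other receptors, ligands and signals of engulfment 18 were measured. Between UPS and LB 2 of them passed, where 6.28% of all genes did, so the share is near the background. A positive ratio was found for 12 of the 18, beside 43.9% of all genes, with a median of 0.040 beside -0.010. In the authors' deposited table Mertk, a receptor for apoptotic cells and synaptic material, had a log2 ratio of 0.25 (adjusted p = 6.67e-05) and the scavenger receptor gene Stab1 had 0.20 (adjusted p = 0.0146). Sirpa, whose product binds the don't-eat-me signal CD47, had 0.12 (adjusted p = 0.0788) in the authors' deposited table and P2ry6, a nucleotide receptor gene that triggers engulfment, had 0.13 (adjusted p = 0.322). Cd33, for an inhibitory sialic acid receptor, had -0.11 (adjusted p = 0.148) by the authors' deposited table. Between UPS and CTL 2 of the 18 passed (Mertk at 0.27, Stab1 at 0.21 in the authors' deposited table), where 4.81% of all genes did, and between LB and CTL 0 did.

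Of 10 measured transcription factors of macrophages 0 passed in any of the 3 comparisons. Over all genes 0.0% passed between LB and CTL, 4.81% between UPS and CTL and 6.28% between UPS and LB. The count for the factors is thus near the background. Their median between UPS and LB was 0.013 beside -0.010 over all genes. Of the 10 ratios 5 were positive, beside 43.9% of all genes. The authors' deposited table gave Mef2a 0.068 (adjusted p = 0.208) and Stat3 0.045 (adjusted p = 0.364). Spi1, which encodes PU.1 and is named for its motif after its values were seen, had -0.020 (p = 0.4) between UPS and LB by the authors' deposited table.

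**Figure D5:**
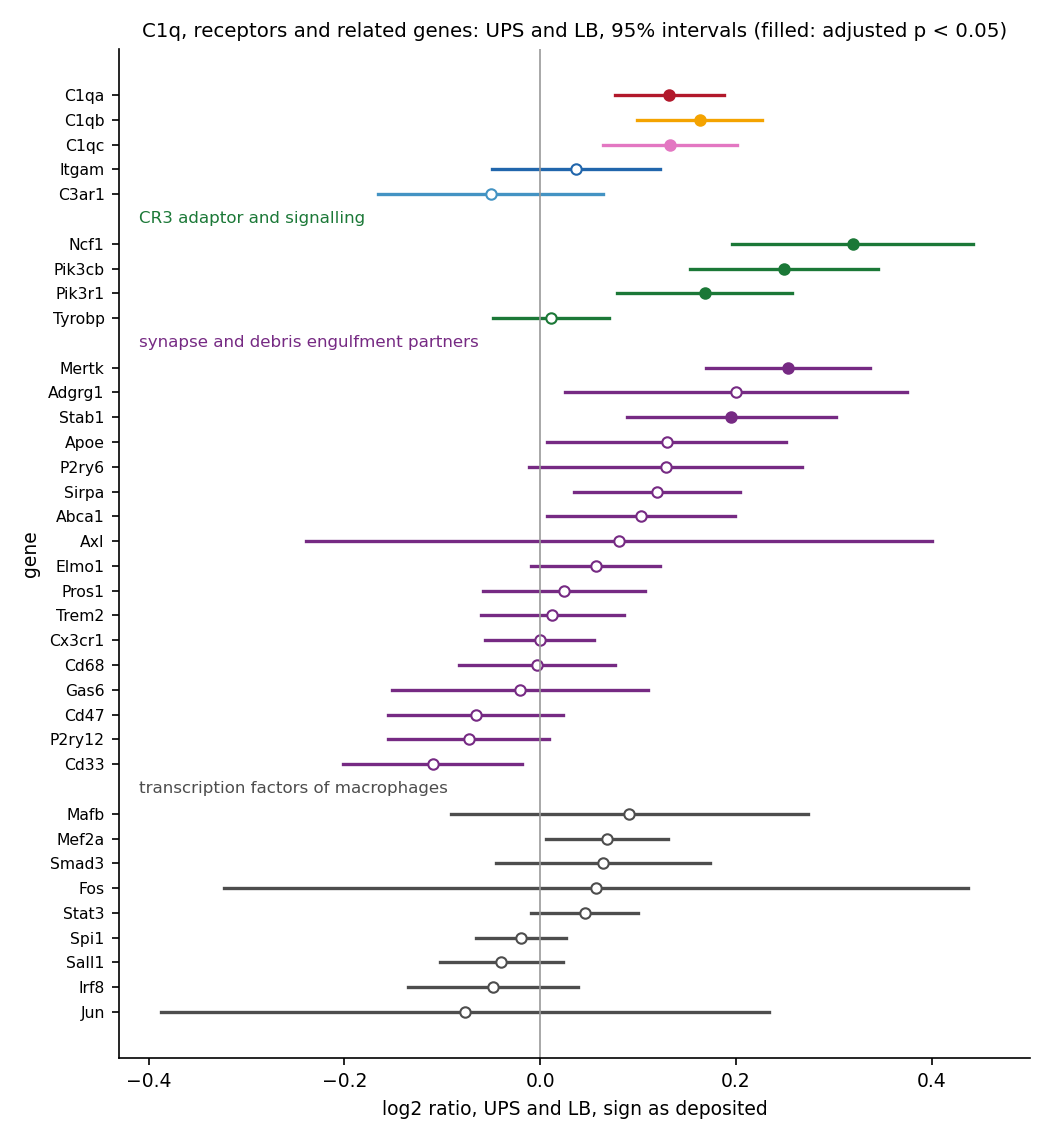
Log2 ratios between UPS and LB (x axis, sign as deposited) with recovered 95% intervals for the 5 genes and for 3 lists of related genes, sorted by ratio within a list and with filled points for an adjusted p below 0.05. Tyrobp belongs to 2 of the lists and is drawn once. The C1q chains, Ncf1, Pik3cb, Pik3r1, Mertk and Stab1 are filled, all right of 0, and every transcription factor drawn is unfilled.

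The genes with values most like those of the C1q chains were found by the Euclidean distance over the 3 deposited log2 ratios to the mean of the chains, which was -0.063 between LB and CTL, 0.079 between UPS and CTL and 0.14 between UPS and LB. Slco2b1, an organic anion transporter, was nearest at a distance of 0.0089, where the median gene lay at 0.21. Its ratios were -0.065, 0.073 and 0.14 in that order in the authors' deposited tables, and it passed between UPS and LB (adjusted p = 0.00461). It was the only gene outside the 5 closer to that mean than C1qa. For C1qb 7 such genes were closer, and for C1qc also 7, although each chain enters the mean itself. Next came Cntf, a neurotrophic cytokine gene, Glul, for glutamine synthetase, Slc25a12, for a mitochondrial carrier, Tnfrsf11a, for the receptor RANK, and Gprasp1, for a receptor sorting protein. None of these 5 passed between UPS and LB. Their ratios were 0.12 to 0.16 in the authors' deposited table, with adjusted p from 0.0737 to 0.567. Itgam was nearest to Ulk1 (0.0040), an autophagy kinase gene, Lrrc25 (0.0081) and the kinase gene Braf (0.017). C3ar1 was nearest to Cltc (0.0038), for the clathrin heavy chain, Ctnnb1 (0.0053), for beta-catenin, and Ifngr2 (0.0068), for an interferon-gamma receptor subunit. Only 3 values that obey 1 sum stand behind each distance, and small ratios lie close together for that reason alone.

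Markers of cells that could accompany microglia were few among the genes analysed. The authors used a count minimum of 20. Whether a listed marker was missing for low counts or for want of a probe was not examined. As background, border macrophages also make C1q, and monocytes and neutrophils also carry CD11b. Of 9 border macrophage markers 2 were measured, Stab1 (above) and Apoe, to which the authors' deposited table gave 0.13 (adjusted p = 0.218) between UPS and LB. Of 7 astrocyte markers 2 were measured, Glul and the glutamate transporter gene Slc1a3. By the authors' deposited table Slc1a3 passed between UPS and LB with 0.25 (adjusted p = 0.00995), and Glul had 0.15 (adjusted p = 0.117). Of 11 monocyte and neutrophil markers only Csf3r was measured, and of 7 lymphocyte and natural killer cell markers only Klrd1. The authors' deposited table gave Csf3r 0.11 (adjusted p = 0.245) and Klrd1 -0.47 (adjusted p = 0.516) between UPS and LB. Measured markers of vessels (2 of 7), the oligodendrocyte lineage (3 of 9) and neurons (1 of 6) passed in 0 cases between UPS and LB. Among them Pecam1, Cd34, Cspg4, Mag and Gad1 had ratios from 0.0029 to 0.45 in the authors' deposited table. Of the 12 microglial markers 1 passed between UPS and LB, where 6.28% of all genes did, so the share is near the background. This was Tmem119, with 0.46 (adjusted p = 0.0076) by the authors' deposited table. The median of the 12 was -0.0063. Between LB and CTL none of these markers passed. The vascular marker Cd34 had -0.42 there (p = 0.0017, adjusted p = 0.194), and Csf3r and the microglial marker Olfml3 both had -0.17, by the authors' deposited table. Between UPS and CTL Slc1a3 passed with 0.21 (adjusted p = 0.0461) in the authors' deposited table, as did Stab1 (above). In that table Cd34 had -0.40 (adjusted p = 0.0511). Stab1 and Slc1a3 thus passed with the same sign as the C1q chains between UPS and LB, and their part in the C1q result was not tested, since no levels per animal were used.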

How the data were processed

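Microglia of 48 animals were assayed on the nCounter glial panel. Per the labels, groups were LB, UPS and CTL in 4 batches, and per the labels' protocols 4 to 5 litters stand behind each group and sex. The authors deposited log2 ratios for each pair of groups. Per the file headers the same tables hold linear fold changes, p-values, and p-values adjusted by Benjamini and Hochberg. Per the series text the authors used nSolver's advanced analysis with batch as a covariate. The sources used here do not state the normalization, software version or depth.

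The p-values were adjusted again over the 478 genes of each table with statsmodels 0.14.6, and 0 calls differed from the deposited column. Standard errors were recovered as the log2 ratio over the t quantile of its p, from the comparison with the gene's smallest p. Residual degrees of freedom of 42, those of 1 model of 48 libraries with rearing and batch, made the standard errors of the 3 tables most alike (median mismatch 0.0984% over 120 genes with every p below 0.5), and 41 to 45 lay close (0.120% to 0.135%). Other adjustments, a threshold of 0.01, centring and the leaving out of imprecise genes were tried.

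The members and lists were chosen with earlier results of these data known. Beside the members, the genes named were list members that passed plus up to 3 per list with the smallest p, up to 2 markers per cell class, and the genes nearest in values (6 for C1q, 3 per receptor). Further genes were named to complete a count. A few genes that this rule would name are not reported here.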

Additional observations from a re-analysis of the deposited data

How the results depend on the processing

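Between UPS and LB the number of the 5 genes that passed was 3 with the adjustment run over the 3 tables together, with a threshold of 0.01, with centring on the median gene and without the genes of largest standard error. It was 2 by Benjamini-Yekutieli or Holm adjustment, where C1qc no longer passed (adjusted p = 0.0645 and 0.148). Both adjustments are stricter by construction. Over these alternatives the adjusted p ranged from 0.000163 to 0.00307 for C1qb, from 0.000337 to 0.0109 for C1qa and from 0.00466 to 0.148 for C1qc. Between LB and CTL and between UPS and CTL 0 of the 5 passed under any of them, with C1qc at its lowest at 0.0527 between UPS and CTL. Over all 478 genes, the number that passed between UPS and LB was 30, against 13 by Benjamini-Yekutieli, 11 by Holm and 18 at 0.01. Between UPS and CTL it was 23, against 4, 5 and 7 in that order. Between LB and CTL it was 0, and 3 with the tables adjusted together. Centring moved no sign of the 5 genes, and 33 genes passed the test of 3 groups under each model of 48 libraries. No paired analysis was possible because no values per library were used, and for the same reason no animal could be left out in turn.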
